A study of Mus musculus with 9 samples.

Results

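The genes described here encode proteins of the outer dense fibres (Odf1, Odf2, Odf3 and Odf4) and of the fibrous sheath (Akap3, Akap4, Fsip1, Fsip2, Ropn1 and Ropn1l) of the sperm tail. They were chosen by name, as the rows of the deposited gene table that carry these 10 symbols, and each symbol had 1 row among the 38685 of the table. Testis RNA was sequenced from male C57BL/6 mice of 3 genotypes at the Prm2 locus, with 3 animals and 3 libraries per genotype: wild-type Prm2+/+, heterozygous Prm2+/- and Prm2-deficient Prm2-/-. Prm2-deficient lines were made by CRISPR/Cas9 editing in oocytes, the labels do not say which line or allele each animal carries, and the age of the animals is not given in the sources used here. Each library holds the whole testis without its capsule, so fewer cells of a type and less RNA per cell cannot be told apart in any of the values below.

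In the mature sperm tail, the outer dense fibres run along the axoneme through the midpiece and most of the principal piece and stiffen it. The fibrous sheath surrounds the principal piece, where it carries glycolytic enzymes and holds protein kinase A (PKA), the cAMP-dependent kinase that controls motility, through A-kinase anchoring proteins. Genes for both structures are transcribed in germ cells, mainly in spermatids, the cells in which protamines come to replace the histones of the nucleus.

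The libraries were made from the 3′ ends of transcripts, and a level is given as the normalised count, that is, the count divided by 1 size factor per library. It is not divided by transcript length, so levels are compared between libraries and not between genes. The recovered counts per library were between 3629929 and 4490411. Replicate 3 of Prm2+/+ had the fewest genes above 0, 19028 beside 19873 to 20526 in the other 8 libraries. It also had the lowest recovered count, 3629929. For Odf1, Odf2, Odf3, Odf4, Akap3, Akap4, Fsip1 and Fsip2, the difference between Prm2-/- and Prm2+/+ is also given without this library. Differences of other genes between these genotypes are given only with it. The Prm2 transcript was not lower in Prm2-/- (normalised counts of 29716 to 42766 over the 9 libraries, LFC of 0.20 between Prm2-/- and Prm2+/+, adjusted p = 0.746 by limma), so its level does not check the genotype labels. The labelled tissue was checked against marker lists. All 8 markers of elongating spermatids and all 5 of round spermatids were above 0 in every library, and 3 of 4 markers of epididymal epithelium were at 0 in every library.

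The promoters of 3 of the genes are printed because these genes carry the main contrasts below: Akap3 and Odf2, whose 3 Prm2-/- libraries all lay above the other 6 libraries, and Akap4, the other A-kinase anchoring protein of the sheath. The sequences are the 250 bases before the annotated start, from the RefSeq table of GRCm38.p6, which matched 8 of the 10 genes with 12 windows (Odf1 and Fsip1 had none). In the windows of Akap3 (chr6:126852848-126853097, plus strand) and Akap4 (chrX:7067265-7067514, plus strand), the capitals mark a run of 20 bases that both share, which ends 14 bases before the start of Akap3 and 27 bases before that of Akap4. In the first of 4 windows of Odf2 (chr2:29889470-29889719, plus strand), the capitals mark GC boxes (GGGCGG, on either strand) and half-sites of the cAMP response element (TGACG, on either strand). This Odf2 window precedes a RefSeq start, but it lies within the gene bounds given below for Odf2, which come from GENCODE M21.
Akap3: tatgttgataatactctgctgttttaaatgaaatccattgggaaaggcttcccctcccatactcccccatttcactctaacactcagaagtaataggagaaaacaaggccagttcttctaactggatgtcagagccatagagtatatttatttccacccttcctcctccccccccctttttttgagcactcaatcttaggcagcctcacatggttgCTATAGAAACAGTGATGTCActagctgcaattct
Akap4: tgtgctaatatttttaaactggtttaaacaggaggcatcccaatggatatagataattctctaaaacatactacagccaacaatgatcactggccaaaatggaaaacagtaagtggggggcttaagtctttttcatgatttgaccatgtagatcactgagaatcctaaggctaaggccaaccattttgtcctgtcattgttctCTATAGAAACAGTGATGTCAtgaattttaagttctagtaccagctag
Odf2: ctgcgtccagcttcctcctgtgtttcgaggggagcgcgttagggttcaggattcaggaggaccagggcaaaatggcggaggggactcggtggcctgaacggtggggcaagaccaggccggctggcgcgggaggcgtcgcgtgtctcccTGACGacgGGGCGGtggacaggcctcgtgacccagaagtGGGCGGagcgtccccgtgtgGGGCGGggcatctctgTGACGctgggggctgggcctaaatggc

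The shared run, CTATAGAAACAGTGATGTCA, was held by 2 of the 32851 windows of the table, those of Akap3 and Akap4. The next longest run shared by windows of any other pair of the genes had 11 bases, between Odf4 and Akap4. The Odf2 window holds 3 GC boxes and 2 half-sites, which do not overlap. GC boxes occurred in 32.7% of all windows and half-sites in 17.8%. Over the 12 windows of these genes, 4 held a GC box, 3 a half-site, 5 a CCAAT box (CCAAT, on either strand, in 33.8% of all windows), 0 a whole cAMP response element (TGACGTCA, 1.55%) and 0 a TATA box (TATAAA, 12.4%). These windows come from 8 genes, and those of Odf2 overlap, so the same Odf2 match is counted repeatedly. The counts are therefore not independent and are not a rate per gene. The GC content was 68.4% for this Odf2 window, 42.8% for Akap3 and 37.2% for the printed Akap4 window, beside a median of 52.4% over all windows. A further Akap4 window, not printed, had 44.4%. The other Odf2 windows had 70.4% to 72.8%, and the one at chr2:29889740-29889989 held no GC box or half-site. These matches describe letters of the sequence and are not binding sites.

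Whether the loss of Prm2 changes the transcripts of the tail was asked by comparing the genotypes in pairs. All 10 genes passed the filter on low counts and were tested together with the other genes, 14893 in all, by limma on log2(normalised count + 1), and calls required both a log2 fold change (LFC) larger than 0.5 in either direction and a Benjamini-Hochberg adjusted p under 0.05. None of the 10 was called (0) between Prm2-/- and Prm2+/+, where 0.181% of all tested genes were called. None (0) was called between Prm2+/- and Prm2+/+ (0.0806% of all genes) or between Prm2-/- and Prm2+/- (0.175% of all genes). At an unadjusted p under 0.05, the members numbered 2, 0 and 3 of 10 in these comparisons. Of all 14893 tested genes, 7.33%, 4.24% and 5.44% (1091, 632 and 810) were under it. The median LFC of the 10 genes was -0.00031, -0.04 and 0.04 in the same order, beside 0.02, 0.01 and -0.01 over all genes. The comparisons share libraries, so their values are given side by side and are not independent.

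**Figure D1:**
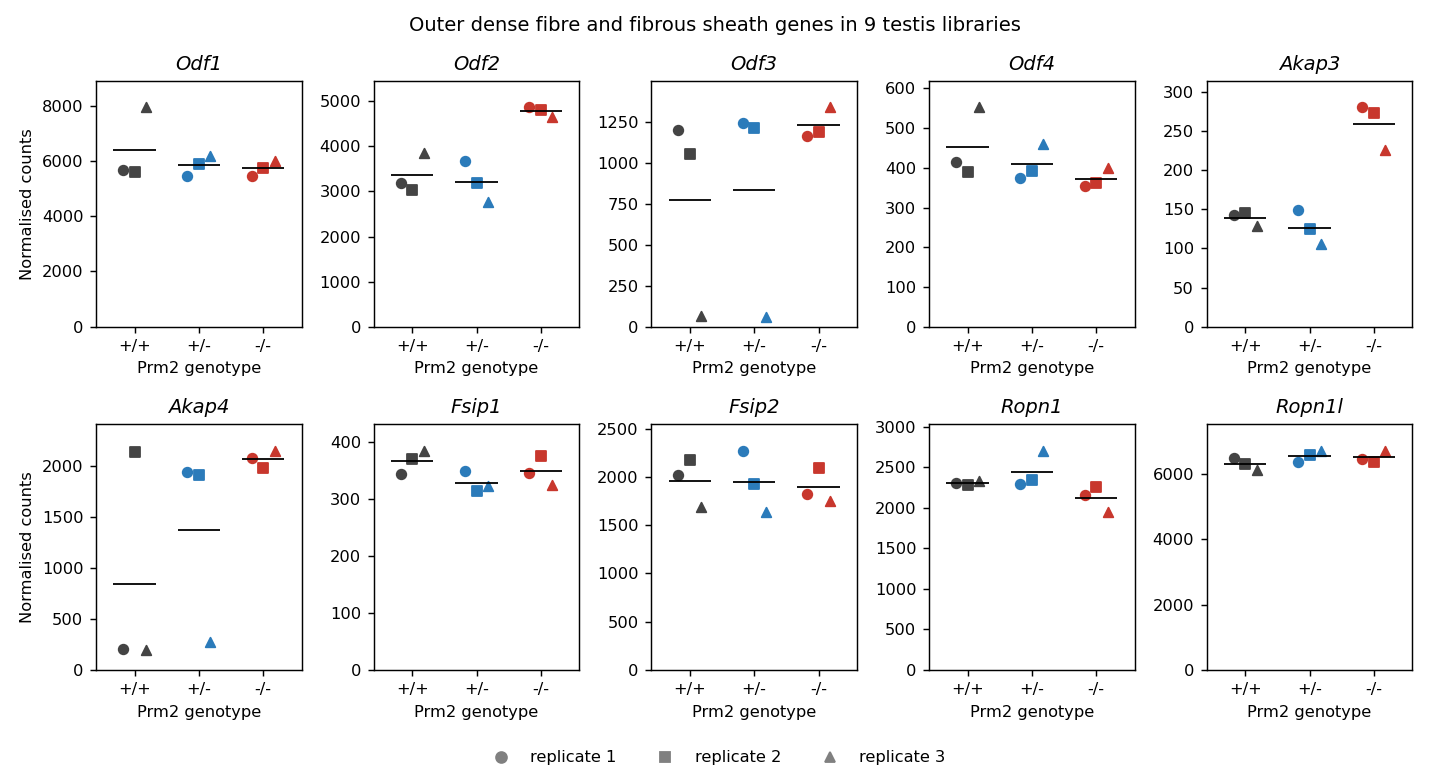
Normalised counts (vertical axes, starting at 0) of the 10 genes in each of the 9 testis libraries, by Prm2 genotype. Symbols give the replicate number and horizontal lines the mean of the 3 libraries. Akap3 and Odf2 have their 3 Prm2-/- libraries above the other 6, while Odf3 and Akap4 fall to a low level in 2 and 3 libraries of the other genotypes.

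Odf1 encodes the main protein of the outer dense fibres, which binds the Odf2 protein (ENSMUSG00000061923, chr15:38219203-38226735, GRCm38). Its normalised counts were 5669, 5616 and 7951 in Prm2+/+, 5446, 5895 and 6188 in Prm2+/-, and 5447, 5761 and 5998 in Prm2-/-. Replicate 3 of Prm2+/+ was the highest of the 9, and the other 8 libraries of all genotypes lay between 5446 and 6188. The LFC between Prm2-/- and Prm2+/+ was -0.14 ± 0.13 (SE, n = 3 per genotype, adjusted p = 0.784 by limma), with a 95% interval from -0.45 to 0.16. Without replicate 3 of Prm2+/+ the LFC was 0.02 (adjusted p = 0.953), so the sign of this small difference rested on that library.

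Odf2 encodes a coiled-coil protein of the fibres, and other products of the gene are scaffold proteins of the centrosome (ENSMUSG00000026790, chr2:29889221-29931746). The deposited row gives 1 value per gene, so products of Odf2 are not separated. Its normalised counts were 3198, 3040 and 3862 in Prm2+/+, 3684, 3193 and 2767 in Prm2+/-, and 4869, 4816 and 4660 in Prm2-/-. The 3 Prm2-/- libraries all lay above the other 6, with a gap from 3862 to 4660, and the other genotypes overlapped. The mean was 4782 ± 108 (SD, n = 3) in Prm2-/-, 3367 ± 436 in Prm2+/+ and 3215 ± 459 in Prm2+/-.

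For Odf2, the LFC between Prm2-/- and Prm2+/+ was 0.51 ± 0.12 (SE), a 1.43-fold difference with a 95% interval of the LFC from 0.23 to 0.80. Its unadjusted p was 0.0030 and its adjusted p = 0.392 by limma, so it did not pass over all genes. Against Prm2+/- the LFC was 0.58 ± 0.12 (adjusted p = 0.417 by limma), and between Prm2+/- and Prm2+/+ it was -0.07 ± 0.12 (adjusted p = 0.905). Without replicate 3 of Prm2+/+, the LFC between Prm2-/- and Prm2+/+ was 0.62 (adjusted p = 0.136). Without replicate 1 or replicate 2 of Prm2+/+ it was 0.48 and 0.44 (adjusted p = 0.530 and 0.468), both under the size of 0.5 that a call needs, and over the 9 fits that each left out 1 library the adjusted p ran from 0.136 to 0.831.

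Odf3 encodes a protein of the sperm tail first found with the fibres (ENSMUSG00000025482, chr7:140847805-140851018). The libraries gave normalised counts of 1200, 1052 and 63.0 in Prm2+/+, 1245, 1211 and 55.7 in Prm2+/-, and 1166, 1187 and 1339 in Prm2-/-. Replicate 3 of Prm2+/+ and replicate 3 of Prm2+/- stood at a low level, and the other 7 libraries at a high one, with no library between them. The mean of the high libraries was 20.2 times that of the low ones. The LFC between Prm2-/- and Prm2+/+ was therefore 1.51 with an SE of 1.44 (adjusted p = 0.789 by limma). Without replicate 3 of Prm2+/+ it was 0.13 (adjusted p = 0.990), so the size of this value came from 1 library. In GENCODE M21, Odf3 overlaps Gm45785 on the opposite strand, which has no row of its own in the table. Whether the counting used strand is not given in the sources used here. Sirt3, on the opposite strand within 20 kb, had lower and higher libraries, with a step under the 3-fold used below to define levels. Its normalised counts were 79.8, 81.4 and 233 in Prm2+/+, 84.0, 225 and 261 in Prm2+/-, and 221, 211 and 213 in Prm2-/-. Sirt3 was higher in both libraries with low Odf3 and in 4 libraries with high Odf3, and lower in the other 3. Its part in the Odf3 values was not tested.

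Odf4 encodes a membrane-associated protein of the tail (ENSMUSG00000032921, chr11:68921835-68927081). For this gene the normalised counts were 414, 390 and 552 in Prm2+/+, 376, 392 and 459 in Prm2+/-, and 353, 361 and 400 in Prm2-/-. As for Odf1, replicate 3 of Prm2+/+ was the highest library, and the genotypes overlapped. The LFC between Prm2-/- and Prm2+/+ was -0.27 ± 0.15 (SE, adjusted p = 0.725 by limma), and -0.12 without that library (adjusted p = 0.802).

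Akap3 encodes an A-kinase anchoring protein that is laid down early in the assembly of the fibrous sheath (ENSMUSG00000030344, chr6:126853098-126874308). Normalised counts of Akap3 were 143, 146 and 129 in Prm2+/+, 149, 125 and 106 in Prm2+/-, and 281, 273 and 226 in Prm2-/-. The lowest Prm2-/- library, at 226, lay above the highest of the other 6, at 149, and Prm2+/+ and Prm2+/- overlapped. The mean was 259.9 ± 29.6 (SD, n = 3) in Prm2-/-, 139 ± 8.73 in Prm2+/+ and 127 ± 21.7 in Prm2+/-.

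For Akap3, the LFC between Prm2-/- and Prm2+/+ was 0.89 ± 0.15 (SE), a 1.86-fold difference with a 95% interval of the LFC from 0.54 to 1.24. Its unadjusted p was 0.00039 and its adjusted p = 0.142 by limma, so this difference, the clearest among the 10 genes by its p, was not called. Against Prm2+/- the LFC was 1.04 ± 0.15, a 2.05-fold difference (adjusted p = 0.0723 by limma), and between Prm2+/- and Prm2+/+ it was -0.15 ± 0.15 (adjusted p = 0.844). Without replicate 3 of Prm2+/+, the LFC between Prm2-/- and Prm2+/+ was 0.84 (adjusted p = 0.212). Without replicate 1 of Prm2+/-, which had the highest Akap3 level of its genotype, the LFC against Prm2+/- was 1.16 and was called (adjusted p = 0.0384 by limma, with 0.327% of all genes called in that fit).

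Count models on the recovered whole counts differed for Akap3 and Odf2. The quasi-likelihood test of edgeR called 0 of the 10 genes in each comparison (Akap3 against Prm2+/+ at an adjusted p = 0.163, against Prm2+/- at 0.0953). DESeq2 with all 9 libraries called Akap3 between Prm2-/- and Prm2+/+ (adjusted p = 0.00042, 1 of the 10 genes, 0.728% of all genes), while Odf2 was at 0.0747. Between Prm2-/- and Prm2+/- it called Akap3 (1.09e-05) and Odf2 (0.0218), that is 2 of the 10 genes where 0.686% of all genes were called. Between Prm2+/- and Prm2+/+ it called 0 (0.356% of all genes). With only the 6 libraries compared, DESeq2 called Akap3 (0.00035) and Odf2 (0.0433) against Prm2+/+, with 0.877% of all genes called. Against Prm2+/- it called the same pair of genes (0.00016 and 0.00047, with 0.884% of all genes), and between Prm2+/- and Prm2+/+ it called 0 (0.337%). All tools gave an LFC of Akap3 against Prm2+/+ between 0.83 and 0.99, leave-one-out fits included.

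**Figure D2:**
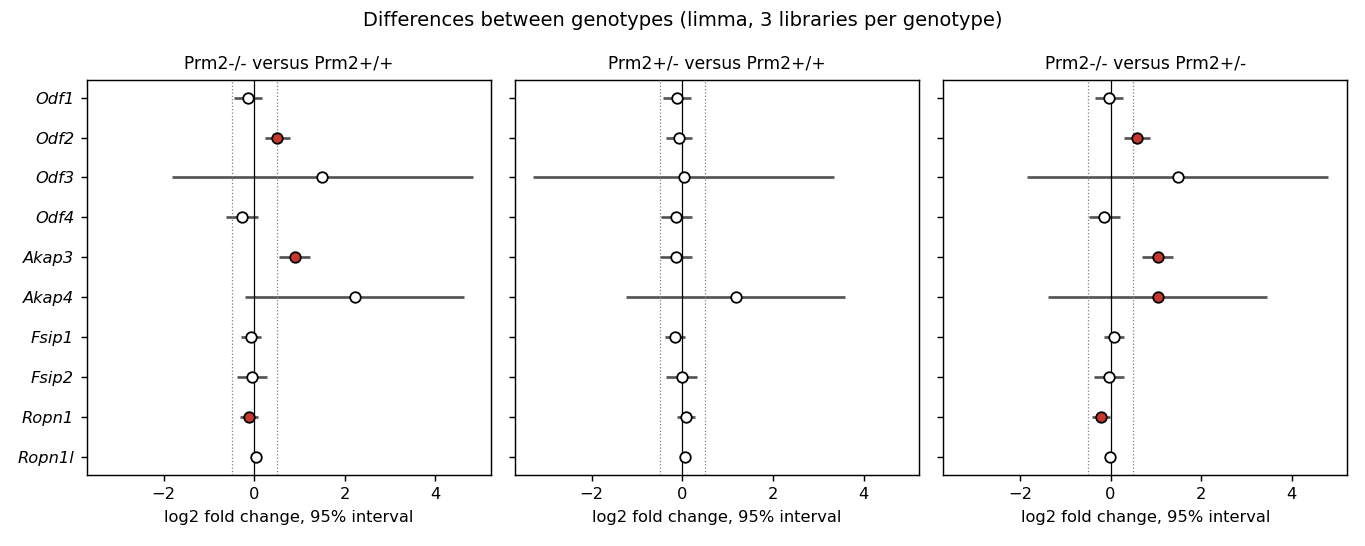
LFC (log2 scale, limma on all 9 libraries) of the 10 genes in the 3 comparisons, with 95% intervals as bars. Filled points mark genes whose libraries do not overlap between the genotypes compared, and dotted lines mark an LFC of 0.5 in either direction. The intervals of Odf3 and Akap4 are several log2 units wide, while those of Ropn1l stay within 0.17 of zero.

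Akap4, on the X chromosome, encodes the most abundant protein of the fibrous sheath (ENSMUSG00000050089, chrX:7067519-7078609). Its normalised counts were 208, 2133 and 194 in Prm2+/+, 1935, 1910 and 272 in Prm2+/-, and 2077, 1980 and 2148 in Prm2-/-. Replicates 1 and 3 of Prm2+/+ and replicate 3 of Prm2+/- were low, and the other 6 libraries were high, 9.03-fold above the low ones by their means. The Prm2-/- libraries lay within the range of the high libraries of the other genotypes together, 1910 to 2133, or just above it. The LFC between Prm2-/- and Prm2+/+ was 2.22 with an SE of 1.05 (95% interval from -0.19 to 4.63, adjusted p = 0.710 by limma). It ranged from 1.63 without replicate 3 of Prm2+/+ to 3.35 without replicate 2, and the adjusted p values of these fits were 0.733 and 0.352. DESeq2 gave no p for Akap4 in this comparison.

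Such a step between a high and a low level was not limited to these 2 genes. With levels defined by a high level of at least 50 normalised counts, a step of at least 3-fold and a range of at most 2-fold within each level, 646 of the tested genes (4.34%) had 2 levels. Replicate 3 of Prm2+/+ was among the low libraries of 385 of them, and each other library of 115 to 192. Replicates 1, 2 and 3 of Prm2-/- were among the low libraries of 133, 115 and 137, so low levels were not confined to the other genotypes. The low libraries differed from gene to gene: 7 other tested genes were low in just the libraries of Odf3, and 2 in just those of Akap4. What produces these steps was not tested, and the fold changes of Odf3 and Akap4 depend on which libraries fell on the low side.

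**Figure D3:**
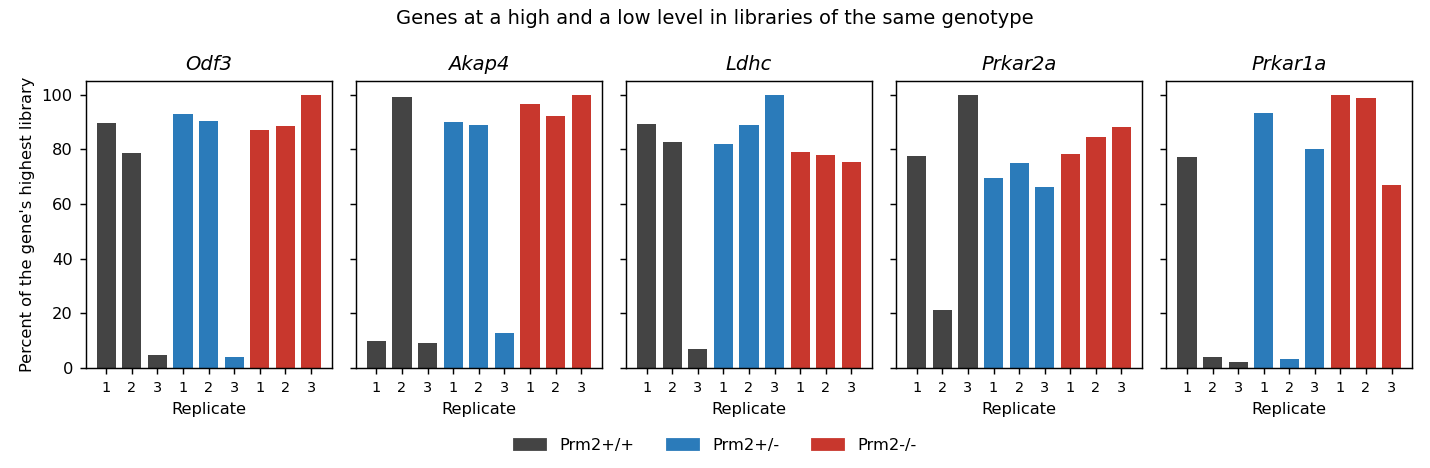
Level of Odf3, Akap4 and 3 genes of the sheath and PKA lists in each library, as a percent of the gene's highest library, with bars coloured by Prm2 genotype and numbered by replicate. Every low library is a Prm2+/+ or Prm2+/- library, and which ones are low differs between the genes. All 3 Prm2-/- libraries are high for each of the 5.

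Fsip1 and Fsip2 encode fibrous sheath interacting proteins, the second of which binds the Akap4 protein. The normalised counts of Fsip1 (ENSMUSG00000027344, chr2:118130424-118256966) were 344, 370 and 385 in Prm2+/+, 349, 313 and 323 in Prm2+/-, and 346, 374 and 324 in Prm2-/-. Those of Fsip2 (ENSMUSG00000075249, chr2:82943634-83008937) were 2021, 2170 and 1686 in Prm2+/+, 2273, 1921 and 1633 in Prm2+/-, and 1823, 2096 and 1753 in Prm2-/-. In both genes the 3 genotypes overlapped. The LFC between Prm2-/- and Prm2+/+ was -0.07 ± 0.10 (SE, adjusted p = 0.843 by limma) for Fsip1, with a 95% interval from -0.29 to 0.15. For Fsip2 it was -0.05 ± 0.15 (adjusted p = 0.949), with an interval from -0.38 to 0.29. Without replicate 3 of Prm2+/+ the LFC was -0.04 for Fsip1 (adjusted p = 0.948) and -0.15 for Fsip2 (adjusted p = 0.797).

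Ropn1 and Ropn1l encode ropporin and its paralog, small proteins that dock to A-kinase anchoring proteins of the sheath through a domain like that of the regulatory subunit of PKA. The normalised counts of Ropn1 (ENSMUSG00000022832, chr16:34649921-34678618) were 2302, 2281 and 2335 in Prm2+/+, 2291, 2341 and 2708 in Prm2+/-, and 2162, 2260 and 1947 in Prm2-/-. The 3 Prm2-/- libraries lay below the other 6, by a narrow gap from 2260 to 2281. The LFC was -0.12 ± 0.09 (SE) against Prm2+/+ (adjusted p = 0.753 by limma) and -0.20 ± 0.09 against Prm2+/- (unadjusted p of 0.046, adjusted p = 0.908). Ropn1l (ENSMUSG00000022236, chr15:31441211-31453737) had the narrowest spread of the 10 genes. Its normalised counts were 6493, 6320 and 6117 in Prm2+/+, 6359, 6578 and 6715 in Prm2+/-, and 6454, 6376 and 6725 in Prm2-/-, with a coefficient of variation of 3.02% over the 9 libraries. The genotypes overlapped, and its LFC against Prm2+/+ was 0.05 ± 0.05 (adjusted p = 0.803 by limma), with an interval from -0.07 to 0.16.

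Counted by libraries that do not overlap, Odf2 and Akap3 were higher and Ropn1 lower in Prm2-/- than in Prm2+/+, 3 of the 10 genes, where 14.0% of all tested genes did not overlap in either direction. Between Prm2-/- and Prm2+/-, 3 genes were higher (Odf2, Akap3 and Akap4) and 1 was lower (Ropn1), where 14.7% of all genes did not overlap. Between Prm2+/- and Prm2+/+ the count was 0, beside 9.44% of all genes. Of all tested genes, 2.37% had their 3 Prm2-/- libraries above the other 6, as Odf2 and Akap3 did, and 2.2% had them below, as Ropn1 did.

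The fibrous sheath and fibre counts were also summed. The 10 genes together took 0.555%, 0.597% and 0.580% of the recovered counts in Prm2+/+, 0.612%, 0.607% and 0.535% in Prm2+/-, and 0.632%, 0.632% and 0.641% in Prm2-/-. The 6 sheath genes took 0.290%, 0.341% and 0.270% in Prm2+/+, 0.339%, 0.335% and 0.296% in Prm2+/-, and 0.332%, 0.331% and 0.330% in Prm2-/-. The low sheath sums are those of the 3 libraries with low Akap4, and the Prm2-/- sums lie below those of the other 3 libraries. The 4 fibre genes took 0.264%, 0.256% and 0.310% in Prm2+/+, 0.273%, 0.272% and 0.239% in Prm2+/-, and 0.299%, 0.301% and 0.312% in Prm2-/-, so the fibre sum of replicate 3 of Prm2+/+ lay within the Prm2-/- range.

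The partners of these proteins were read from 4 lists with 41 genes, of which 38 were tested. None of the 38 was called (0) by limma in any of the 3 comparisons (0.181%, 0.0806% and 0.175% of all genes) or by DESeq2 with all 9 libraries (0.728%, 0.356% and 0.686%). At an unadjusted p under 0.05 the lists held 4 genes between Prm2-/- and Prm2+/+, 0 between Prm2+/- and Prm2+/+ and 1 between Prm2-/- and Prm2+/-, beside 7.33%, 4.24% and 5.44% of all tested genes. The median LFC of the 38 between Prm2-/- and Prm2+/+ was -0.05, and 16 of them had a positive LFC, beside a median of 0.02 and 52.9% with a positive LFC over all genes.

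Among the partners and paralogs of the fibre proteins, 9 genes of which 7 were tested, the smallest p belonged to Tssk4, a testis kinase that acts on the Odf2 protein. Its normalised counts were low, 5.70, 8.57 and 2.21 in Prm2+/+, 11.9, 9.13 and 3.53 in Prm2+/-, and 17.2, 27.4 and 10.6 in Prm2-/-. All 3 Prm2-/- libraries exceeded the Prm2+/+ libraries, and the highest Prm2+/- library overlapped them. The LFC against Prm2+/+ was 1.62 ± 0.59 (SE, adjusted p = 0.617 by limma). Next came Odf2l, a paralog of Odf2, with normalised counts of 178 to 240.4 in Prm2+/+ and 137 to 177 in Prm2-/- (LFC of -0.39 ± 0.19, adjusted p = 0.713).

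Of the 12 partners of the fibrous sheath, which include the glycolytic enzymes bound to it, all were tested. Pgk2, the phosphoglycerate kinase of male germ cells, had normalised counts of 3388, 3052 and 3864 in Prm2+/+ and 2969, 3143 and 2502 in Prm2-/-, and the genotypes overlapped. Its LFC was -0.26 ± 0.11 (SE, adjusted p = 0.674 by limma). Hk1, a hexokinase with germ cell isoforms, stood at 29.8 to 48.2 in Prm2+/+ and 38.9 to 78.1 in Prm2-/- (LFC of 0.58 ± 0.32, adjusted p = 0.726). Ldhc, the lactate dehydrogenase of germ cells, is named because its levels had a step like that of Akap4: it was at 2505 in replicate 3 of Prm2+/+ and at 27414 to 36393 in the other 8 libraries.

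The 6 subunits of PKA are the kinase that the anchoring proteins hold. Prkaca, the main catalytic subunit, had normalised counts of 729.8, 691 and 748 in Prm2+/+ and 607, 631 and 619 in Prm2-/-, and all 3 Prm2-/- libraries lay below those of Prm2+/+. Its LFC was -0.22 ± 0.10 (SE, adjusted p = 0.708 by limma), and the Prm2+/- libraries, at 615 to 804, overlapped both. Prkar1a, a regulatory subunit, stood at 931, 50.4 and 24.3 in Prm2+/+, 1123, 40.2 and 966 in Prm2+/-, and 1205, 1192 and 807 in Prm2-/-. It thus had 3 low libraries, none of them Prm2-/-, and its LFC of 3.30 had an SE of 1.59 (adjusted p = 0.716). DESeq2 with 9 libraries gave an LFC of 1.67 for it. Prkar2a, a further regulatory subunit named for its step, was at 275 in replicate 2 of Prm2+/+ and at 856 to 1295 in the other libraries.

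The other A-kinase anchoring proteins made a list of 14 genes, of which 13 were tested. Akap1, which anchors PKA at mitochondria, had normalised counts of 582, 533 and 639 in Prm2+/+, 732, 594 and 513 in Prm2+/-, and 802, 811 and 835 in Prm2-/-. As for Akap3 and Odf2, its 3 Prm2-/- libraries lay above the other 6. The LFC against Prm2+/+ was 0.48 ± 0.13 (SE, unadjusted p of 0.0070, adjusted p = 0.494 by limma). Akap2 stood at 138 to 149 in Prm2+/+, 145 to 175 in Prm2+/- and 152 to 215 in Prm2-/- (LFC of 0.39 ± 0.15, adjusted p = 0.645), and its Prm2+/- and Prm2-/- libraries overlapped. The remaining 11 tested genes of this list had unadjusted p values above 0.05 in this comparison.

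**Figure D4:**
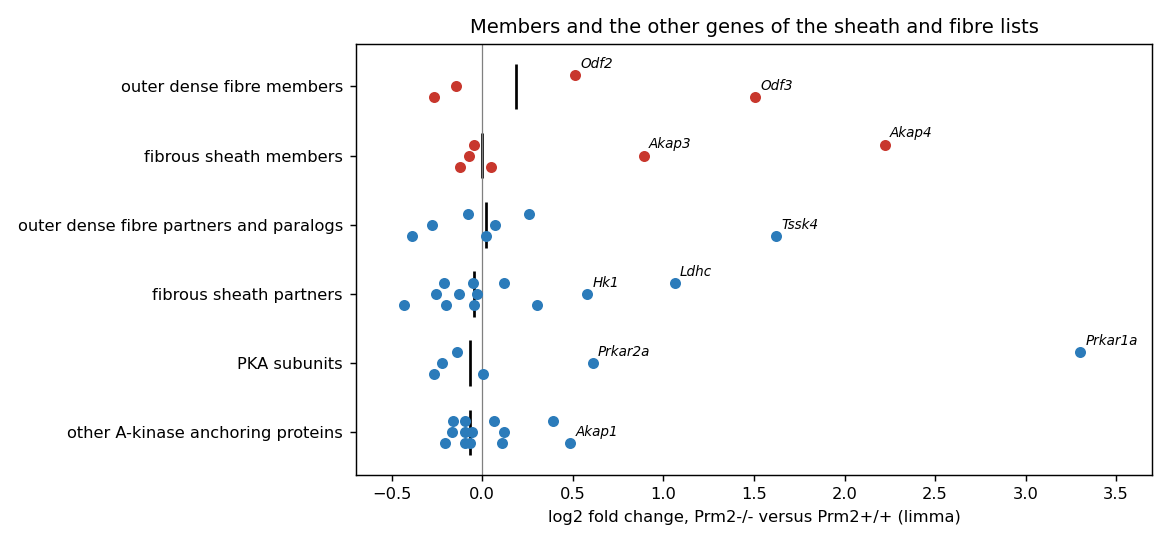
LFC between Prm2-/- and Prm2+/+ (limma, log2 scale) of the 4 fibre genes and 6 sheath genes (red) and of the 38 tested genes of the 4 partner lists (blue), with a black bar at the median of each row and names for genes beyond 0.45 in size. None of the points passed the adjusted threshold.

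The makeup of the tissue was read from 11 marker lists. In the 10 lists with tested genes, 0 markers were called between Prm2-/- and Prm2+/+, where 0.181% of all genes were called, so lists of this size would seldom hold a call, and no epididymal marker (0) was tested. The summed normalised count of the 8 elongating spermatid markers was 220105 to 235435 in Prm2+/+, 214989 to 228279 in Prm2+/- and 212912 to 223525 in Prm2-/-. That of the 5 round spermatid markers was 4628 to 5221, 4934 to 5461 and 4927 to 5221 in the same order. For the 6 spermatocyte markers it was 6741 to 9752, 6005 to 9251 and 9073 to 9555, and for the 6 spermatogonial markers 220.5 to 329, 215 to 328 and 246 to 287. In these 4 germ cell lists the 3 genotypes overlapped.

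Of the somatic lists, the 5 Sertoli cell markers summed to 2406 to 3220 in Prm2+/+, 2449 to 2529 in Prm2+/- and 2713 to 2959 in Prm2-/-, and 4 of 5 Leydig cell markers had a row and summed to 1564 to 1878, 1812 to 2281 and 1789 to 1992. The 4 peritubular markers summed to 293 to 325, 254 to 277 and 226 to 271, so the Prm2+/+ libraries lay above the others. The 5 macrophage markers summed to 199.998 to 278, 242 to 248 and 245 to 268, the 4 endothelial markers to 51.3 to 72.9, 69.4 to 78.1 and 61.9 to 86.6, and the 4 haemoglobin genes of red blood cells to 676 to 1188, 904 to 1084 and 804 to 1205. The epididymal markers summed to at most 3.65. The part of these levels in the values of Akap3 and Odf2 was not tested.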

How the data were processed

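RNA was extracted from testes and 3′-end libraries were sequenced by the authors. Per the labels' processing notes and the methods, reads were trimmed with Trim Galore 0.4.5, mapped to GRCm38 with HISAT2 2.1, quantified with StringTie 1.3.3 and normalised with DESeq2. Values in the deposited table are a signal (normalised counts), and 100% were whole multiples (relative tolerance 1e-06) of 1 step per library, from which whole counts were recovered. The step was nearest to 1 for replicate 1 of Prm2+/- (0.989) and replicate 2 of Prm2-/- (1.015), each with 100% whole multiples. With 3629929 to 4490411 counts per library, genes with few counts have the widest errors. By Ensembl gene identifier, 38520 rows matched GENCODE M21 genes.

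Genes kept by filterByExpr on recovered counts (14893) were fitted with limma 3.58.1 (R 4.3.3, trend) on log2(normalised count + 1), with all 9 libraries and genotype as the only term. LFC values are on that scale, which understates changes of genes with few counts. The alternatives were edgeR 4.0.16, DESeq2 1.42.0, other scalings, pseudocounts of 0.5 and 5, other filters, a replicate block, and leaving out each library. Scripts were tested on simulated data. Figures used matplotlib 3.10.9 with Python 3.11.15.

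The 10 genes and all lists were chosen with earlier results of these data known. Named besides the 10 were Prm2, the 2 genes with the smallest unadjusted p between Prm2-/- and Prm2+/+ in each partner list, and the 3 genes with levels most like those of Odf1, Odf2 and Akap4 (mean of at least 100 normalised counts). Ldhc and Prkar2a were named after their values were seen. Labels name the 3 libraries of a genotype as separate samples, which a figure legend of the study calls biological replicates.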

Additional observations from a re-analysis of the deposited data

How the results depend on the processing

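Over 20 alternatives per comparison, 600 LFC values of the 10 genes were recomputed: 573 kept their direction and side of the threshold, 8 passed it (Akap3 and Odf2, given above), 0 lost a call and 19 changed sign, all on leaving out a library. The number of the 10 genes called was 0 with limma and edgeR, but with DESeq2 it was 1 (9 libraries) and 2 (6 libraries) against Prm2+/+, and 2 and 2 between Prm2-/- and Prm2+/-. On leaving out 1 library in turn, it ranged from 0 to 1 between Prm2-/- and Prm2+/-, the 1 being Akap3 without replicate 1 of Prm2+/-. The cause was not tested.

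The sign changes came from small or 2-level differences. With 1 library left out, the LFC between Prm2-/- and Prm2+/+ ranged from -0.23 to 0.022 for Odf1 and from -0.15 to 0.030 for Fsip2. Between Prm2+/- and Prm2+/+ it ranged from -0.20 to 0.048 for Odf1, -0.17 to 0.035 for Odf2, -1.35 to 1.51 for Odf3, -0.23 to 0.019 for Odf4 and -0.14 to 0.10 for Fsip2. Between Prm2-/- and Prm2+/- it ranged from -0.076 to 0.016 for Odf1, -0.15 to 0.090 for Fsip2 and -0.030 to 0.011 for Ropn1l.

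Over all tested genes, no pairing of libraries by replicate number was seen. The 9 same-numbered pairs had correlations of their deviations between -0.037 and 0.042. This measure would not show a link limited to some genes, and the labels do not state a pairing. In Prm2+/+, Prm2+/- and Prm2-/-, replicate 3 was the highest for Odf1 (7951, 6188 and 5998) and Odf4 (552, 459 and 400). Whether same-numbered libraries share an origin was not tested. With the replicate block, 0 of the 10 genes were called in each comparison, and the adjusted p against Prm2+/+ was 0.124 for Akap3 and 0.607 for Odf2. Between Prm2-/- and Prm2+/+, the LFC of Akap4 fitted by DESeq2 with 9 libraries was 1.29, and that of Odf3 was 0.67. With other scalings the median of all genes moved by at most 0.04 on the log2 scale. With 3 libraries per genotype and these depths, smaller differences of low genes such as Tssk4 were not resolved.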

Other observations

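The genes whose levels over the 9 libraries were most like those of 3 of the genes were sought among 5880 tested genes with a mean of at least 100 normalised counts, by Pearson's r of log2(normalised count + 1). These are descriptions over 9 shared libraries, with no test. For Odf1 they were Lrwd1 (r = 0.98), Catsperz (0.98) and Dbil5 (0.97). Catsperz encodes a subunit of the sperm calcium channel of the tail, and its normalised counts were 2541, 2479 and 3431 in Prm2+/+, so replicate 3 of Prm2+/+ was high as for Odf1. Without the 2 libraries farthest from the median of Odf1 (replicate 3 of Prm2+/+ and of Prm2+/-), the r values were 0.73, 0.76 and 0.60.

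For Odf2 they were Lancl1 (r = 0.97), Akap1 (0.96) and AC153379.2 (0.94). Akap1 thus appeared both in the list of anchoring proteins and here, and its r within genotypes, after each genotype's mean was taken off, was 0.93, beside 0.96 for Lancl1 and 0.85 for AC153379.2. For Akap4 they were Psmd2 (0.99), 1700095B10Rik (0.96) and Htatip2 (0.96), which were lower in the libraries with low Akap4 than in the others. The step of Htatip2 was smaller than that of Akap4, from 82.2 to 106 in the low libraries to 197 to 253 in the high ones. Psmd2 encodes a subunit of the proteasome. The libraries fall into a low and a high group for Akap4, and genes that share this grouping have a high r.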
